A study of Mus musculus with 4 samples.

Results

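The Schlafen genes examined here are 6 of the 31053 genes in the count tables of mouse wound leukocytes: Slfn1, Slfn2, Slfn4, Slfn5, Slfn8 and Slfn9. They were chosen by symbol, as the Schlafen genes of chromosome 11, and also for a measured value, since Slfn9 had the higher level in the knockout on both days. The genotype difference of Slfn9 is therefore given as a description, with no test. The cells came from 3 mm punch wounds in the shaved and depilated skin of male mice aged 8 weeks, killed 1 or 5 days post wounding (dpw). Wild-type mice (Angptl4+/+) and knockout mice (Angptl4-/-) carry the same strain label, C57BL6/J. The wild-type mice were bought from a vendor and the knockout line came from a mouse repository, and no source used here says that they were littermates. Live cells positive for CD45, the surface protein shared by leukocytes, were sorted and run on a droplet 3' kit, with 1 library for each genotype and day. The number of mice behind a library is not given in the sources used here, so genotype and library cannot be told apart.

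Schlafen proteins are a mammalian family that shares a core domain able to cut or bind RNA. Slfn1 and Slfn2 are short members, Slfn4 is of intermediate length, and Slfn5, Slfn8 and Slfn9 are long members with a helicase-like end. Several are induced by type I interferon, and members have been tied to quiescence of T cells, to myeloid differentiation and to control of transfer RNA. In myeloid cells interferon acts through its receptor and the Jak kinases, and many of its target genes carry a GAAA-rich promoter element.

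The members lie side by side on chromosome 11 (GRCm38), all annotated as protein coding. Slfn5 is at chr11:82951349-82964840 on the plus strand, followed by Slfn9 at chr11:82978390-82991830 and Slfn8 at chr11:83002158-83020810, both on the minus strand. Slfn2 at chr11:83065112-83070678, Slfn1 at chr11:83116849-83122670 and Slfn4 at chr11:83175186-83190216 follow on the plus strand. The pseudogene Slfn10-ps is annotated between Slfn8 and Slfn2, and Slfn3 and Slfn14 lie beyond Slfn4.

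Stretches of 100 bases from the promoters are printed because they show the short runs that some members share and others lack. All come from RefSeq on GRCm38.p6, and 6 of 6 members matched. Each is written 5′ to 3′ on the strand of its gene. The first 3 are those of the members with the interferon element GAAANNGAAA, searched on both strands within 250 bases before the start and marked in capitals.

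Slfn5, chr11:82951902-82952001, plus strand: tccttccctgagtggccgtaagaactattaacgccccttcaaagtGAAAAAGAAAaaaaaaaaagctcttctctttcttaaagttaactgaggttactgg
Slfn9, chr11:82991831-82991930, minus strand: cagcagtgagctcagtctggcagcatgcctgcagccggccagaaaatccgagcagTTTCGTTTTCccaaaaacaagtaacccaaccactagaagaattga
Slfn8, chr11:83020811-83020910, minus strand: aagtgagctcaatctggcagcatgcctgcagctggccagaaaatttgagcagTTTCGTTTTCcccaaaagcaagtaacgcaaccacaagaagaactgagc

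Distances are counted from the RefSeq start, the base after chr11:82952101 for Slfn5 and after chr11:83116819 for Slfn1, which for these members is not the first base of the gene spans above. The element began 155 bases before the start of Slfn5, and in Slfn8 and Slfn9 it lay on the opposite strand, 48 and 45 bases before the start. It occurred in 821 of 27025 promoters of this length (3.04%). The other members had no such match, and the element TTCNNNGAA, held by 7.18% of promoters, was in none of the 6. The promoters of Slfn8 and Slfn9 were identical in 80.0% of aligned bases, against 42.5 to 49.1% for the other pairs.

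The promoters of Slfn1, Slfn2 and Slfn4 shared a run of 11 bases, noticed after the sequences were read and marked in capitals.

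Slfn2, chr11:83065012-83065111, plus strand: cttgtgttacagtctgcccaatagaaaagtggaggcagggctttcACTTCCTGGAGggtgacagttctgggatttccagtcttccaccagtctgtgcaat
Slfn1, chr11:83116720-83116819, plus strand: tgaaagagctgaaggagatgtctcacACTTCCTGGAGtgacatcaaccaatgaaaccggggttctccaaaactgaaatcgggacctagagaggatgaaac
Slfn4, chr11:83175086-83175185, plus strand: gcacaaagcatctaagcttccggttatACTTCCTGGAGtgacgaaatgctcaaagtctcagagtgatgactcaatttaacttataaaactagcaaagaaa

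The run ACTTCCTGGAG lay 74, 55 and 73 bases before the starts of Slfn1, Slfn2 and Slfn4, and 19 of 27025 promoters held it (0.0703%). A match describes these letters only and does not show that a factor binds there.

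The libraries held 4772 to 5419 barcodes and 26981596 to 32962595 unique molecular identifiers (UMIs, each standing for 1 captured RNA molecule), and 19827 of 20069 barcodes passed the filters. Of each library's barcodes, 16 to 32 also occurred in another library. The targeted gene fitted its labels, with 47 UMIs of Angptl4 in wild-type wounds on day 1 and 78 on day 5, and 0 in both knockout libraries. Most cells formed 5 neutrophil-like clusters (2696 to 3887 cells per library) or 2 macrophage-like clusters (645 to 1545), and smaller classes resembled monocytes, dendritic cells, B cells and a mix of NK and T cells (NK/T-like). All 10 neutrophil markers and all 12 macrophage markers had UMIs in their class. The neutrophil markers summed to 105660 to 215884 UMIs per 1000000 in the neutrophil-like class and to 1844 to 11413 in the macrophage-like class. The macrophage markers summed to 17203 to 21319 in the macrophage-like class and to 4123 to 8903 in the neutrophil-like class. In the NK/T-like class 5 mast cell markers summed to 814 per 1000000 in knockout wounds on day 5. They summed to 52.3 in wild-type wounds on that day, and to 26.2 (wild-type) and 51.9 (knockout) on day 1. The part of such cells in the NK/T-like values was not tested.

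The members fell into 2 groups by cell class. Slfn1, Slfn2 and Slfn4 had their highest level in the neutrophil-like class in 4 of 4 libraries. Slfn5, Slfn8 and Slfn9 had theirs in the macrophage-like class in most libraries. Levels are UMIs of a gene per 1000000 UMIs of the class, called CPM below. They are not scaled to length, so values are compared within a gene and not between genes. Intervals are exact 95% intervals that cover counting error only.

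Slfn4, an intermediate-length member known from myeloid cells, had 1875 CPM in neutrophil-like cells of wild-type wounds on day 1 and 1405 on day 5, against 2246 and 1668 in knockout wounds. In macrophage-like cells the values in the same order were 617, 152, 763 and 164 CPM. The neutrophil-like level was higher in every library, with a log2 ratio of macrophage-like over neutrophil-like cells between -3.34 and -1.56. Part of the UMIs in other classes can be RNA set free from neutrophils, and the share was measured with 6 neutrophil genes. Their median level in macrophage-like cells was 1.75 to 5.85% of that in neutrophil-like cells (highest single gene 12.1%), while Slfn4 stood at 9.86 to 34.0%. In NK/T-like cells Slfn4 stood at 16.2% of its neutrophil-like level in wild-type wounds on day 1 and 14.6% in knockout wounds, beside medians of 16.8% and 7.87% for the 6 genes. The first of these shares lies below its background and the second above it, and that class had only 39 and 36 cells on that day. In monocyte-like cells Slfn4 stood at 6.07 to 10.6%, beside medians of 3.82 to 11.6% for the 6 genes. The highest single gene (16.0 to 22.0%) was above Slfn4 in each library. The part of such RNA in the monocyte-like Slfn4 level was not tested. On day 5 the log2 ratio of macrophage-like over monocyte-like cells for Slfn4 was 0.03 (-0.19 to 0.27) in wild-type wounds, within counting error. In knockout wounds it was 0.27 (0.05 to 0.50).

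Slfn1, a short member known to restrain growth of thymocytes, had 405 CPM in wild-type and 510 in knockout neutrophil-like cells on day 1, and 588 and 690 on day 5. In macrophage-like cells it had 225 and 281 CPM on day 1 and 166 and 180 on day 5. The intervals of these classes did not overlap within any library. The neutrophil-like level was 1.80 to 2.86 times that of the class next in order. Slfn2, a short member needed for quiescence of T cells and monocytes, had a log2 ratio of macrophage-like over neutrophil-like cells between -0.88 and -0.30. It had 980 and 1128 CPM in neutrophil-like cells on day 1 (wild-type and knockout) and 971 and 1195 on day 5. In macrophage-like cells it had 795 and 830 CPM on day 1 and 529 and 684 on day 5. Its highest level was 1.22 to 1.55 times the next. In NK/T-like cells Slfn2 had 308 to 485 CPM, the lowest of the 5 classes with at least 30 cells in every library, though on day 1 in knockout wounds its interval overlapped that of dendritic cell-like cells.

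Slfn5, a long nuclear member induced by interferon, had 599 and 800 CPM in macrophage-like cells on day 1 (wild-type and knockout) and 405 and 519 on day 5. In neutrophil-like cells it had 88.6 and 79.8 CPM on day 1 and 289 and 233 on day 5. The gap between the classes thus narrowed from day 1 to day 5, from a log2 ratio of 2.76 to 0.49 in wild-type and from 3.33 to 1.15 in knockout wounds. With median of ratios scaling the direction in wild-type wounds on day 5 turned, to -0.46. In that library the monocyte-like class had the highest Slfn5 level, at 479 CPM.

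Slfn8 had 124 and 165 CPM in macrophage-like cells on day 1 and 88.9 and 127 on day 5. In neutrophil-like cells it had 59.3 and 45.7 CPM on day 1 and 60.2 and 46.9 on day 5. The macrophage-like level was the highest of the classes in 4 of 4 libraries, but on day 5 its interval overlapped that of monocyte-like cells in both genotypes. With median of ratios scaling the wild-type direction against neutrophil-like cells turned, to -0.37 on day 1 and -0.38 on day 5.

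Slfn9, the long member next to Slfn8, rested on far fewer molecules, 2587 UMIs in all cells that passed the filters. In macrophage-like cells it had 28.3 CPM (25.0 to 32.1) in wild-type wounds on day 1, 19.3 (17.0 to 21.9) on day 5, and 75.0 (68.1 to 82.4) and 72.0 (66.1 to 78.2) in knockout wounds. In neutrophil-like cells it had 4.07 (3.23 to 5.06) and 5.21 (3.80 to 6.97) CPM in wild-type wounds, and 9.66 (8.29 to 11.2) and 26.5 (23.7 to 29.6) in knockout wounds. Both knockout libraries were above both wild-type libraries in each class, with no overlap of intervals. The neutrophil-like level was 12.9 to 36.9% of the macrophage-like one. For 7 of the 12 macrophage markers the median was 0.135 to 0.510% (highest single gene 2.08%). All 12 together summed to 4123 to 8903 CPM in neutrophil-like and 17203 to 21319 in macrophage-like cells. The part of RNA set free from other cells in the neutrophil-like Slfn9 level was not tested. In wild-type wounds on day 5 the class with the most Slfn9 was NK/T-like, at 24.7 CPM. Its interval overlapped those of monocyte-like and macrophage-like cells. The log2 ratio of NK/T-like over macrophage-like cells in that library was 0.35 (-0.08 to 0.77). The macrophage-like interval also overlapped that of NK/T-like cells in wild-type wounds on day 1 and that of monocyte-like cells in knockout wounds on day 5. In the latter the log2 ratio of macrophage-like over monocyte-like cells was 0.36 (0.02 to 0.72).

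**Figure D1:**
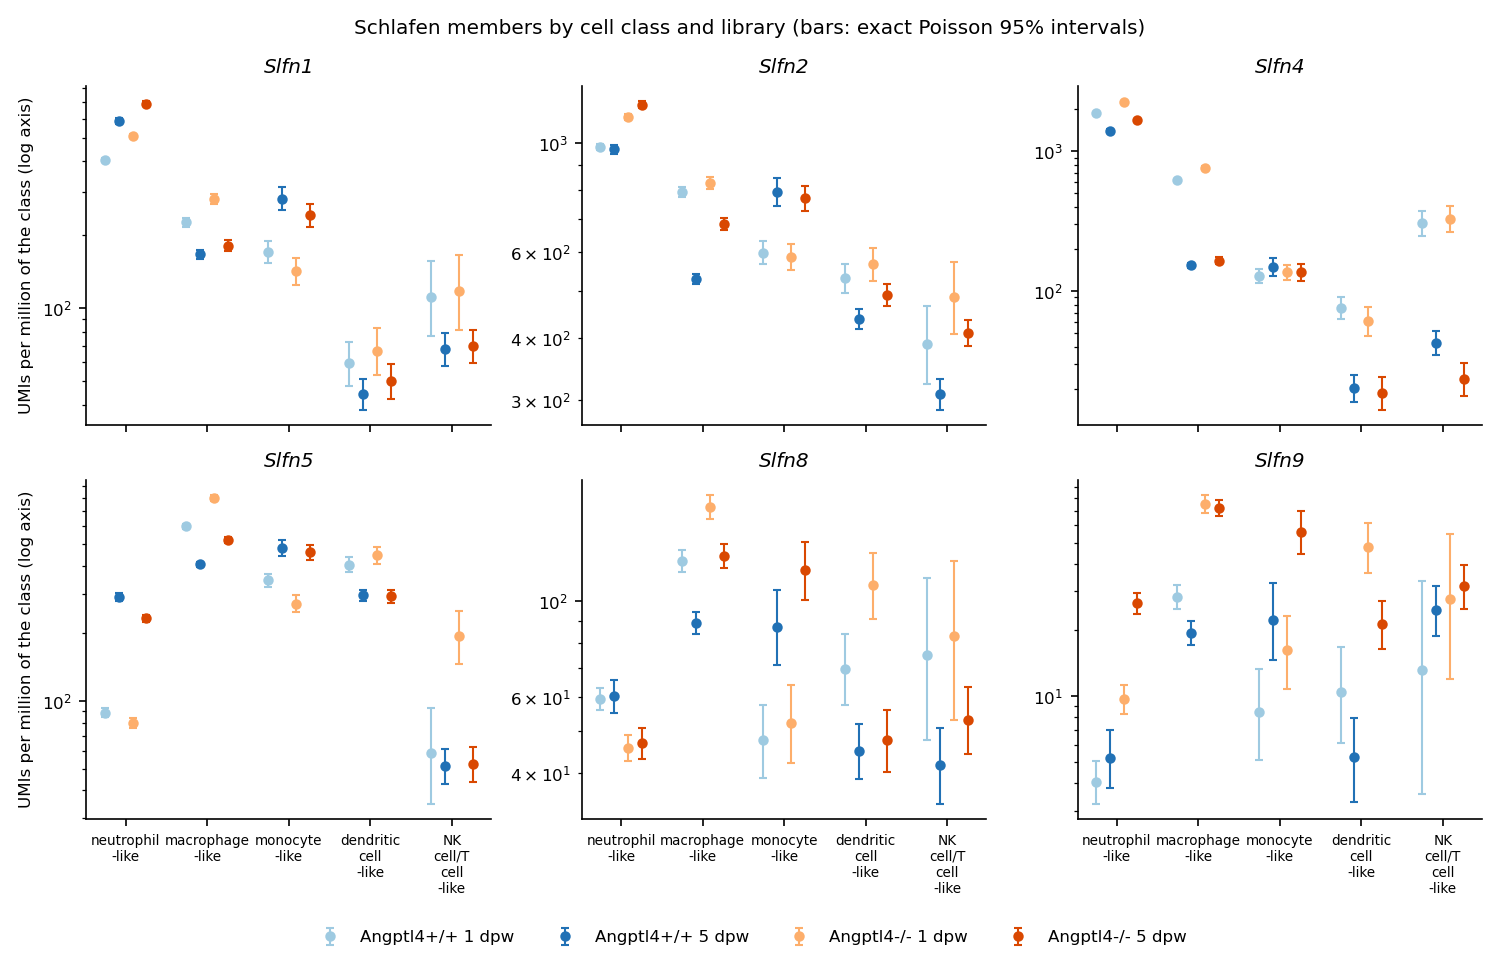
Level of each member (UMIs per 1000000 of the class, log axis) in each cell class of the 4 libraries, with exact 95% intervals for counting error. Slfn1, Slfn2 and Slfn4 are highest in neutrophil-like cells in 4 of 4 libraries, Slfn8 is highest in macrophage-like cells in 4 of 4 and Slfn5 and Slfn9 in 3 of 4, and with median of ratios scaling Slfn8 turns against neutrophil-like cells in both wild-type libraries and Slfn5 on day 5.

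The first comparison asked which members differed between wounds with and without Angptl4. Slfn9 had the largest ratio of the members in both main classes on both days. In macrophage-like cells its log2 ratio of knockout over wild-type was 1.40 (1.18 to 1.63) on day 1 and 1.90 (1.68 to 2.12) on day 5. In neutrophil-like cells it was 1.25 (0.86 to 1.65) on day 1 and 2.35 (1.90 to 2.83) on day 5. Among genes with at least 100 UMIs in the comparison, ordered from the highest ratio, Slfn9 ranked 10 of 7832 and 12 of 8838 in macrophage-like cells, and 17 of 6468 and 7 of 6695 in neutrophil-like cells. Slfn9 was chosen for this difference, so the ranks are a description. When every cell was thinned to 1000 UMIs, the macrophage-like value on day 1 was 0.77 (0.10 to 1.44) and no longer past 2-fold, from 36 UMIs in wild-type and 44 in knockout cells.

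In each of the 4 genotype comparisons 1 of the 6 members was past 2-fold, and it was Slfn9. Past 2-fold were 0.689% of genes in macrophage-like cells on day 1 and 1.12% on day 5, and 0.959% and 0.986% in neutrophil-like cells. Since Slfn9 was selected on these values, its count says nothing about the family. The member nearest to the limit from below was Slfn8 in macrophage-like cells on day 5, at 0.52, and the nearest above it was Slfn9 in neutrophil-like cells on day 1, at 1.25.

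The remaining members differed by less, and not in 1 direction. Slfn1 and Slfn4 had higher levels in knockout cells of both main classes on both days, with log2 ratios of 0.12 to 0.33 for Slfn1 and 0.11 to 0.31 for Slfn4. Slfn2 had ratios of 0.06 to 0.37 in these comparisons, and its lowest, in macrophage-like cells on day 1, turned to -0.12 in cells thinned to 1000 UMIs. The intervals of these values were above 0, but libraries of the same genotype and day were not replicated, so the spread between animals is unknown. With all cells of a library summed, the Slfn4 ratio on day 5 was 0.74, above the 0.25 and 0.11 found within neutrophil-like and macrophage-like cells. Neutrophil-like cells, where Slfn4 is highest, numbered 2696 in the wild-type and 3498 in the knockout library on that day.

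Slfn5 and Slfn8 went opposite ways in the main classes. In macrophage-like cells Slfn5 had a log2 ratio of 0.42 (0.36 to 0.47) on day 1 and 0.36 (0.30 to 0.42) on day 5, and Slfn8 had 0.41 (0.29 to 0.54) and 0.52 (0.39 to 0.64). In neutrophil-like cells Slfn5 had -0.15 (-0.25 to -0.05) and -0.31 (-0.39 to -0.23), and Slfn8 had -0.37 (-0.50 to -0.25) and -0.36 (-0.53 to -0.19). Slfn8, whose promoter and transcript were the most like those of Slfn9 among the members, was thus lower in knockout neutrophil-like cells while Slfn9 was higher. The median over all genes was 0.02 and -0.02 in macrophage-like cells and -0.09 and -0.07 in neutrophil-like cells. The median of the 6 members was 0.37 and 0.36 in the former and 0.23 and 0.24 in the latter. The 6 include Slfn9, which was chosen for this difference, so their median is a description.

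**Figure D2:**
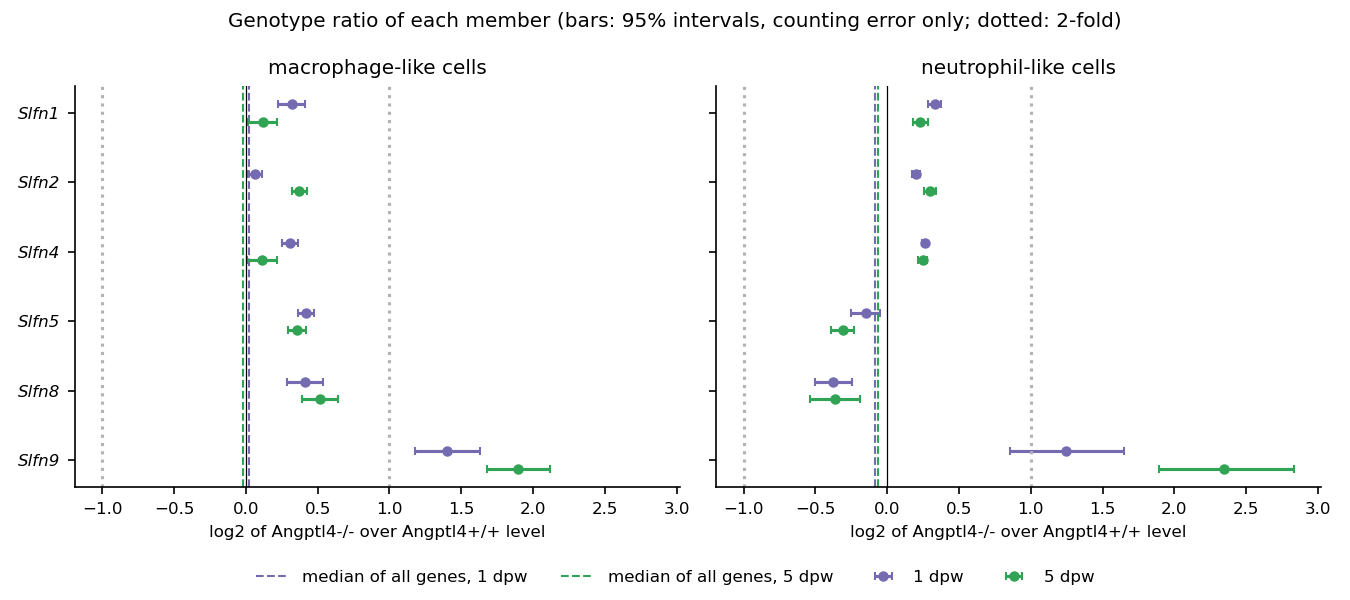
Log2 ratio of knockout over wild-type for each member on days 1 and 5 in macrophage-like and neutrophil-like cells, with exact 95% intervals for counting error and lines at 2-fold. Slfn9 lies past the 2-fold line in all 4 comparisons (1.25 to 2.35), while Slfn5 and Slfn8 lie above 0 in macrophage-like and below 0 in neutrophil-like cells.

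In dendritic cell-like, monocyte-like and NK/T-like cells the Slfn9 level was also the higher in knockout wounds. These classes come from the same libraries that Slfn9 was chosen by, so their values are a description. The log2 ratio of Slfn9 in dendritic cell-like cells was 2.19 (1.39 to 3.06) on day 1 and 2.02 (1.30 to 2.79) on day 5. In monocyte-like cells it was 0.93 (0.05 to 1.85) and 1.33 (0.68 to 2.03). In NK/T-like cells the intervals included 0, at 1.08 (-0.82 to 3.26) and 0.36 (-0.15 to 0.88), the first from 4 and 8 UMIs. The other members went both ways in monocyte-like cells. On days 1 and 5 the log2 ratio was -0.27 and -0.22 for Slfn1, -0.03 and -0.04 for Slfn2 and 0.08 and -0.13 for Slfn4. It was -0.34 and -0.06 for Slfn5 and 0.13 and 0.43 for Slfn8. Of these, the intervals excluded 0 for Slfn1 and Slfn5 on day 1 and Slfn8 on day 5.

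Slfn9 was also described by cluster, in the same libraries that it was chosen by, so the clusters are not replicates. Of 10 clusters with at least 30 cells, Slfn9 was higher in the knockout library in 10 on day 1 and in 10 on day 5, with intervals above 0 in 7 and 8. With no minimum of UMIs the ratio was beyond 2-fold in 6 and 8 of them, of which 2 and 5 had at least 100 UMIs. In the stefin-expressing neutrophil-like cluster (cluster 7) the wild-type library on day 5 had 0 UMIs against 6, so no ratio is given. Of the 2 macrophage-like clusters, the one led by Retnla, Cav1 and Mmp12 (cluster 3) had 12.4 CPM in wild-type and 54.6 in knockout cells on day 1, and 7.92 and 56.1 on day 5. The one led by Ccl8, Ccl12 and Gas6 (cluster 5) had 53.6 and 96.5 CPM on day 1 and 33.4 and 86.3 on day 5. The log2 ratios were 2.14 and 2.83 in the former and 0.85 and 1.37 in the latter. The share of the macrophage-like class in the second cluster, which has more Slfn9, was 26.0% and 31.8% on day 1 and 37.1% and 47.8% on day 5 (wild-type and knockout), and the part of this mix in the class values was not tested. In the neutrophil-like cluster led by Ifit3b and Ifit1 (cluster 4) Slfn9 had 17.0 and 38.8 CPM on day 1 and 33.9 and 108 on day 5.

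**Figure D3:**
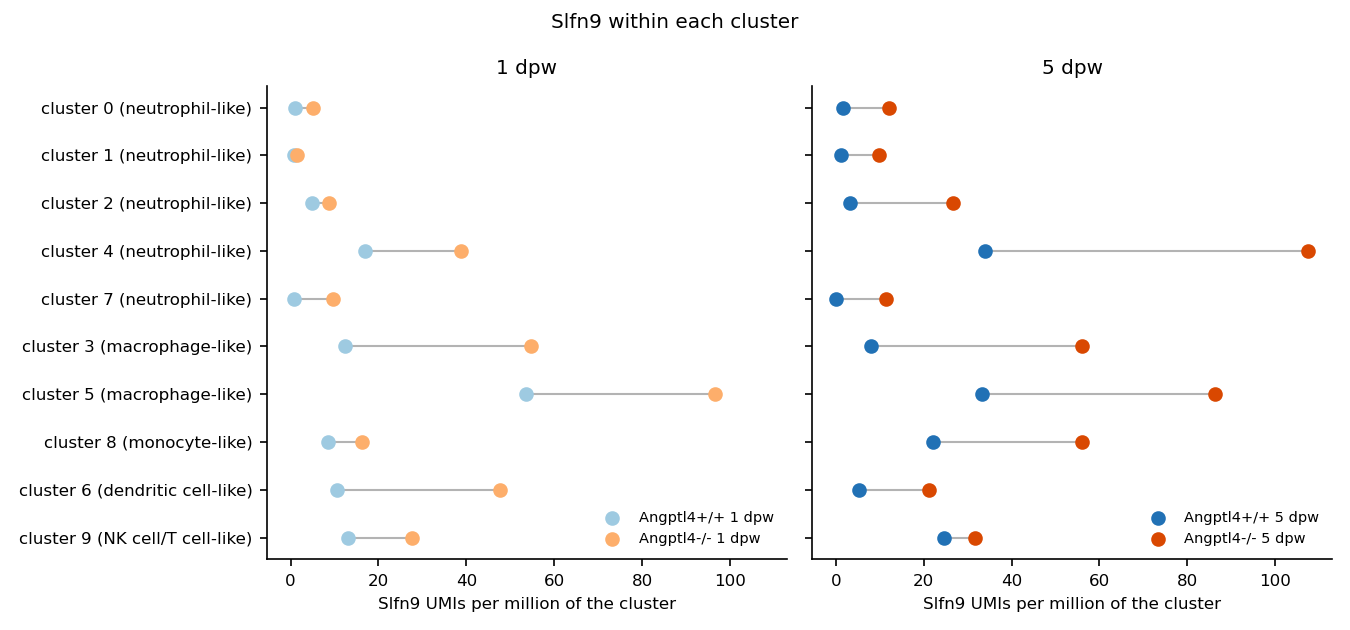
Slfn9 level (UMIs per 1000000) in each cluster with at least 30 cells, wild-type (Angptl4+/+) beside knockout (Angptl4-/-), on days 1 and 5. The knockout value is the higher in 10 of 10 clusters on each day, and on day 5 the macrophage-like cluster 3, led by Retnla, Cav1 and Mmp12, has 7.92 in the wild-type and 56.1 in the knockout library. The clusters share the libraries that Slfn9 was chosen by and are not replicates.

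The Slfn5 genotype values also depended on the cluster. Slfn5 had log2 ratios of 0.58 and 0.66 (days 1 and 5) in the Retnla macrophage-like cluster but 0.16 and 0.08 in the Ccl8 one. In the neutrophil-like cluster led by Ceacam10 and Ggt1 (cluster 1) it had -0.91 and -0.94, with 43.0 CPM in wild-type and 22.8 in knockout cells on day 1 and 228 and 118 on day 5. In the neutrophil-like cluster led by Ifit3b and Ifit1, which had the most Slfn5 among the neutrophil-like clusters, it had -0.04 (-0.17 to 0.09) and -0.30. On day 1 cluster 1 was the only one of the 5 neutrophil-like clusters with an interval below 0, and Slfn5 was higher in the knockout library in 2 of 5 (0.09 in cluster 0 and 0.38 in cluster 7). On day 5 it was lower in 4 of 5, with intervals below 0 in 3, and was 0.16 in cluster 2.

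The Slfn1 and Slfn4 values of macrophage-like cells on day 5 also differed between clusters. Slfn1 had log2 ratios of 0.15 (-0.01 to 0.32) in the Retnla cluster and -0.01 (-0.13 to 0.11) in the Ccl8 one. Slfn4 had 0.32 (0.18 to 0.45) in the former and -0.10 (-0.26 to 0.05) in the latter.

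Reads of near-identical copies limit the member values. Of the 31-base words in Slfn9 transcripts, 13.3% also occur in Slfn8 and 14.3% in Slfn10-ps, and in the last 500 bases, where a 3' kit reads, the shares are 15.3% and 18.6%. Of the words in Slfn8, 19.1% occur in Slfn9 and 18.7% in Slfn10-ps, and in its last 500 bases 25.0% and 31.8%. Slfn4 shares 12.9% of its words with Slfn3, though 0% in its last 500 bases. How such reads were assigned is not given in the sources used here, and Slfn10-ps was not analysed here, so the split between Slfn8, Slfn9 and the pseudogene is uncertain.

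Around the family, 2 other genes were past 2-fold by genotype, in 1 comparison each. Of the 93 genes annotated from 1 Mb before the first Schlafen gene to 1 Mb after the last, 60 were in the tables, and 18 to 21 others than the family had at least 100 UMIs in a comparison. Of these, Ccl8, a monocyte-attracting chemokine gene, was past 2-fold in macrophage-like cells on day 1, with 136 CPM in wild-type and 59.1 in knockout cells (log2 ratio -1.20). On day 5 it had 41.1 and 46.5 CPM. Gm20234, annotated on the strand opposite Slfn2, was past 2-fold in neutrophil-like cells on day 5, with 14.5 and 6.53 CPM (-1.15, from 125 and 80 UMIs). No other neighbour was past 2-fold in these 4 comparisons. On days 1 and 5 the counts were 1 of 19 and 0 of 21 in macrophage-like and 0 of 18 and 1 of 18 in neutrophil-like cells. Over all genes 0.689% and 1.12% were past 2-fold in the former and 0.959% and 0.986% in the latter. With so few neighbours these counts are a description.

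**Figure D4:**
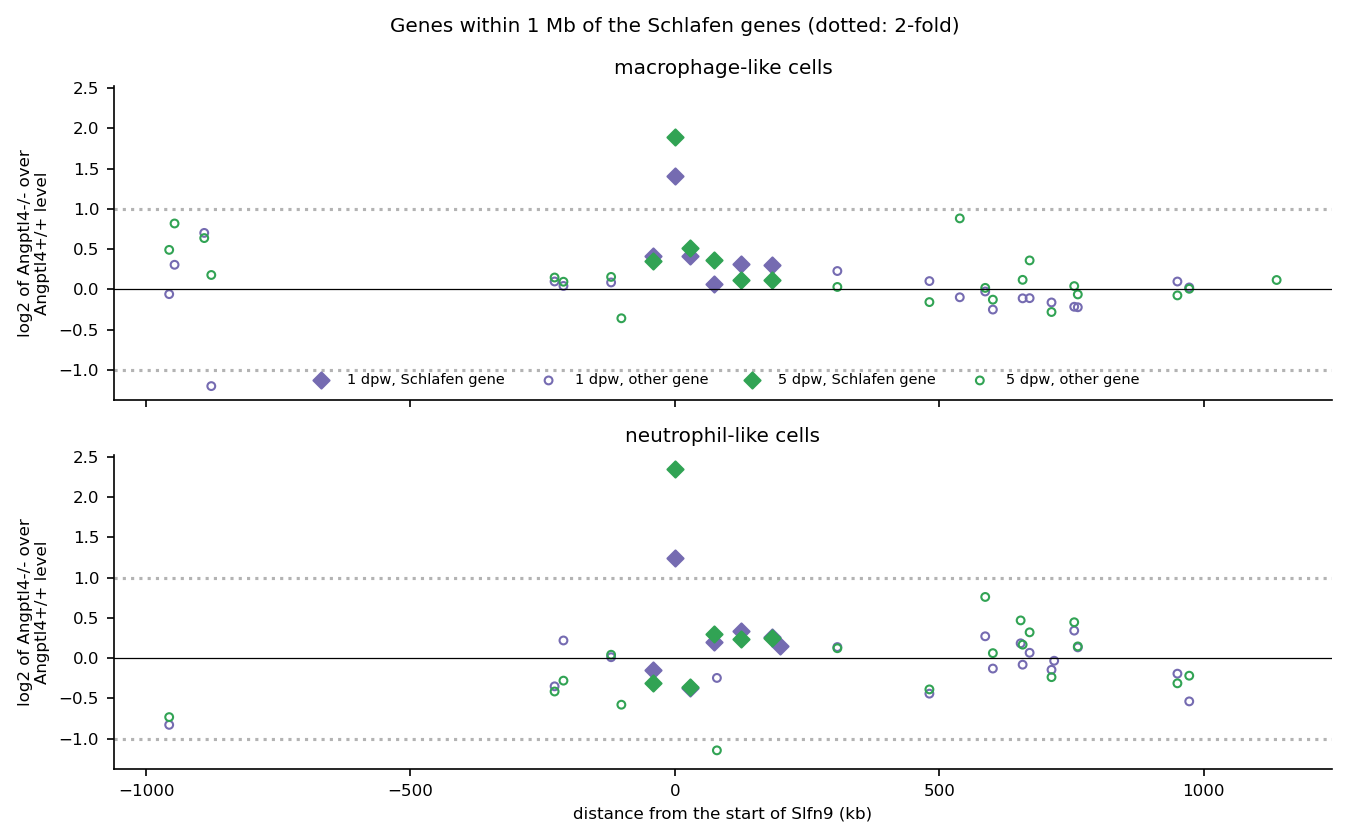
Log2 ratio of knockout over wild-type for genes with at least 100 UMIs, by distance in kb from the start of Slfn9, in macrophage-like and neutrophil-like cells on days 1 and 5, with Schlafen genes as filled diamonds and other genes as circles. Slfn9 stands past 2-fold in each comparison, and beside it only Ccl8 (-1.20) and Gm20234 (-1.15), in 1 comparison each.

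The next comparison asked how the members changed from day 1 to day 5. In macrophage-like cells 6 of 6 members had the lower level on day 5 in both genotypes, and in knockout wounds 5 of the 6 intervals excluded 0. The share of all genes lower on day 5 was not counted. In each genotype 1 of 6, Slfn4, was past 2-fold (10.7% of genes in wild-type and 8.2% in knockout wounds were past 2-fold). Slfn4 went from 617 to 152 CPM in wild-type and from 763 to 164 in knockout macrophage-like cells, log2 ratios of -2.02 (-2.09 to -1.95) and -2.21 (-2.31 to -2.12). The median of the 6 neutrophil genes in macrophage-like cells, as a share of their neutrophil-like level, was 5.85% on day 1 and 1.76% on day 5 in wild-type and 4.78% and 1.75% in knockout wounds, and the part of such RNA in the Slfn4 difference was not tested. Slfn5 had day ratios of -0.56 and -0.62, Slfn1 of -0.43 and -0.64, and Slfn2 of -0.59 and -0.28 (wild-type and knockout). Slfn8 had -0.48 and -0.37, and the latter turned to 0.02 in cells thinned to 1000 UMIs. Slfn9 had -0.55 (-0.81 to -0.30) in wild-type and -0.06 (-0.24 to 0.13) in knockout cells, and the second value changed sign under 3 of the alternatives. The median day ratio over all genes was 0.15 and 0.07.

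In neutrophil-like cells the day ratios are read against the median of all genes, which was itself 0.65 in wild-type and 0.68 in knockout wounds. Slfn5 went the other way than in macrophage-like cells, from 88.6 to 289 CPM and from 79.8 to 233, log2 ratios of 1.71 and 1.55, or 1.06 and 0.87 above the median. It was the 1 member past 2-fold in wild-type wounds, where 32.4% of genes were, and in knockout wounds it was 1 of 2, with Slfn9, where 34.5% of genes were. Slfn9 had a day ratio of 0.36 (-0.20 to 0.90) in wild-type and 1.46 (1.19 to 1.73) in knockout neutrophil-like cells. Which members were past 2-fold depended on the scaling. With median of ratios scaling Slfn4, at -0.42 and -0.43 before, had -1.07 in wild-type and -1.11 in knockout cells and was past 2-fold in both. Slfn5, at 0.87, and Slfn9, at 0.78, were then no longer past 2-fold in knockout cells, and Slfn9 in wild-type cells turned to -0.29. Slfn1 had 0.54 and 0.44, which lie 0.11 and 0.25 under the median, so that with median of ratios scaling its direction turned. Slfn2 and Slfn8 had ratios between -0.01 and 0.08, and with that scaling -0.66 and -0.60 for Slfn2 and -0.63 and -0.65 for Slfn8 (wild-type and knockout).

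The genotype ratio of Slfn9 was larger on day 5 than on day 1, by 0.49 (0.18 to 0.80) in macrophage-like and by 1.10 (0.51 to 1.69) in neutrophil-like cells, with intervals for counting error only. In thinned cells the neutrophil-like ratios were 1.71 on day 1 and 1.86 on day 5, which puts the difference at 0.16, and in macrophage-like cells it was 0.92. In macrophage-like cells the difference between the days goes with a wild-type level that was lower on day 5, and in neutrophil-like cells with a knockout level that was higher.

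Because several members are known interferon targets, they were set beside a list of 34 interferon-induced genes without Schlafen members, of which 33 were in the count tables. In the genotype comparisons 1 of the list was past 2-fold, Isg15, a ubiquitin-like antiviral protein (0.689 to 1.12% of all genes were past 2-fold). It had 264 and 655 CPM in macrophage-like cells on day 1 (wild-type and knockout) and 86.0 and 224 on day 5. In neutrophil-like cells it had 280 and 838 CPM on day 1 and 264 and 622 on day 5. The knockout level was the higher on each day in both classes. The list was higher in knockout macrophage-like cells for 33 of 33 genes with enough UMIs on day 1 and 28 of 33 on day 5, with medians of 0.25 and 0.22. In neutrophil-like cells it was higher for 27 of 30 and 21 of 30, with medians of 0.27 and 0.21. Over all genes the medians were 0.02 and -0.02 in macrophage-like and -0.09 and -0.07 in neutrophil-like cells. The share of all genes higher in the knockout was not counted. In monocyte-like cells the list summed to less in the knockout, with 2012 and 1745 CPM on day 1 (wild-type and knockout) and 3388 and 2725 on day 5. In NK/T-like cells it summed to 2312 and 2185 CPM on day 1 and 1397 and 1445 on day 5. Dendritic cell-like cells had 3727 and 4455 CPM on day 1 and 2406 and 2633 on day 5. The other members of the list with the most UMIs, Rsad2 and Trim30a, had ratios of 0.17 to 0.74 and of 0.10 to 0.28 in the main classes. The Slfn9 ratio of 1.25 to 2.35 lay above all of the list in both macrophage-like comparisons and on day 5 in neutrophil-like cells, and below Isg15 (1.58) in neutrophil-like cells on day 1. Slfn9 was chosen for this difference and the list was not, so its place beside the list is a description only. From day 1 to day 5, 33 of 33 genes of the list were lower in macrophage-like cells of both genotypes, 14 of them past 2-fold in each, with medians of -0.68 and -0.92 (over all genes 10.7% and 8.2% were past 2-fold). The share of all genes lower on day 5 was not counted in either class. In neutrophil-like cells 10 of 30 were higher and 20 lower on day 5 in each genotype, with medians of -0.20 in wild-type and -0.16 in knockout wounds beside 0.65 and 0.68 over all genes. Cxcl10, a chemokine gene, was lower past 2-fold in both, and Ifit3, Ifit3b and Bst2 were higher past 2-fold in wild-type wounds.

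Of 17 genes for interferon receptors and their signalling, 0 were past 2-fold by genotype in either class on either day. Over all genes 0.689 to 1.12% were, so 0 of 17 is near that share and says little about this list. The medians were 0.11 and 0.04 in macrophage-like cells and 0.05 and 0.11 in neutrophil-like cells. Over all genes they were 0.02, -0.02, -0.09 and -0.07 in the same order.

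Cells of each class and library were then split into 4 equal bins by their summed level of the 33 listed genes in the count tables, which holds no member. All 6 members had a higher level in the top than in the bottom bin in 4 of 4 libraries of both classes. The share of all genes higher in the top bin was not counted. In neutrophil-like cells Slfn2 and Slfn9 rose through all bins in only 2 of 4 libraries, and in macrophage-like cells Slfn9 did in 3 of 4. Slfn5 showed the steepest gradient in neutrophil-like cells. In wild-type wounds on day 1 its level from the bottom to the top bin was 2.98, 13.1, 46.8 and 281 CPM, and on day 5 it was 20.3, 58.0, 179 and 896. In knockout wounds it was 2.74, 8.17, 41.6 and 260 on day 1 and 20.3, 33.7, 122 and 731 on day 5. The level of Slfn5 was thus higher in each bin than in the one before it in all 4 libraries. The log2 ratio of the top over the bottom bin was 5.17 to 6.57 for Slfn5, 3.55 to 4.40 for Slfn8 and 2.46 to 5.02 for Slfn9 in these cells. It was 2.34 to 3.27 for Slfn4, 1.47 to 1.82 for Slfn1 and 0.79 to 0.88 for Slfn2. The members with a promoter match to GAAANNGAAA printed above are Slfn5, Slfn8 and Slfn9, and a link between the match and these ratios was not tested. The ratios of Slfn9 rest on few UMIs in the bottom bin, and their range overlaps that of Slfn4, which has no match.

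In macrophage-like cells the ratios were 3.23 to 4.18 for Slfn5, 2.84 to 4.19 for Slfn4, 2.60 to 3.27 for Slfn8, 2.59 to 3.52 for Slfn1 and 1.03 to 1.24 for Slfn2. Slfn9 had ratios of 3.05 to 4.11 in 3 libraries and 0 UMIs in the bottom bin of the fourth, wild-type on day 1. Slfn2 thus had the lowest ratio in each class, and the range of Slfn4 overlapped those of Slfn5, Slfn8 and Slfn9 in macrophage-like cells and that of Slfn9 in neutrophil-like cells. Depth differed between bins in some libraries. In macrophage-like cells of knockout wounds on day 1 the median was 3104 UMIs per cell in the bottom and 7934 in the top bin, and in the day 5 library it was 11162 and 11423. A bin is a range and not a cell type, and 40 to 204 cells per class and library lay within 10% of the limit of the top bin.

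The genotype difference of Slfn9 was also described within bins. These hold cells of the same libraries that it was chosen by, so the bins are not replicates. In the top bin of macrophage-like cells Slfn9 had 82.9 and 167 CPM on day 1 (wild-type and knockout) and 56.8 and 157 on day 5, log2 ratios of 1.01 and 1.47. In the bin next to the lowest it had 2.25 and 27.6 CPM on day 1 and 4.12 and 45.3 on day 5, ratios of 3.62 and 3.46. In the top bin of neutrophil-like cells it had 13.1 and 31.6 CPM on day 1 and 15.7 and 65.2 on day 5, ratios of 1.27 and 2.05. In the bottom bin of neutrophil-like cells the values were 1.38 and 1.49 CPM on day 1, from 6 UMIs in each library, and 0.483 and 11.9 on day 5, from 1 and 34 UMIs. The knockout level was thus the higher in every bin, though in the 2 lower bins of neutrophil-like cells on day 1 the ratios were 0.12 and 0.34 and a difference was not detectable at this depth. Bins were set within each library, so bins of equal rank were not equal in the list itself. In the top bin of macrophage-like cells the 33 genes summed to 19352 CPM in wild-type and 22361 in knockout cells on day 1, and to 8692 and 11163 on day 5.

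**Figure D5:**
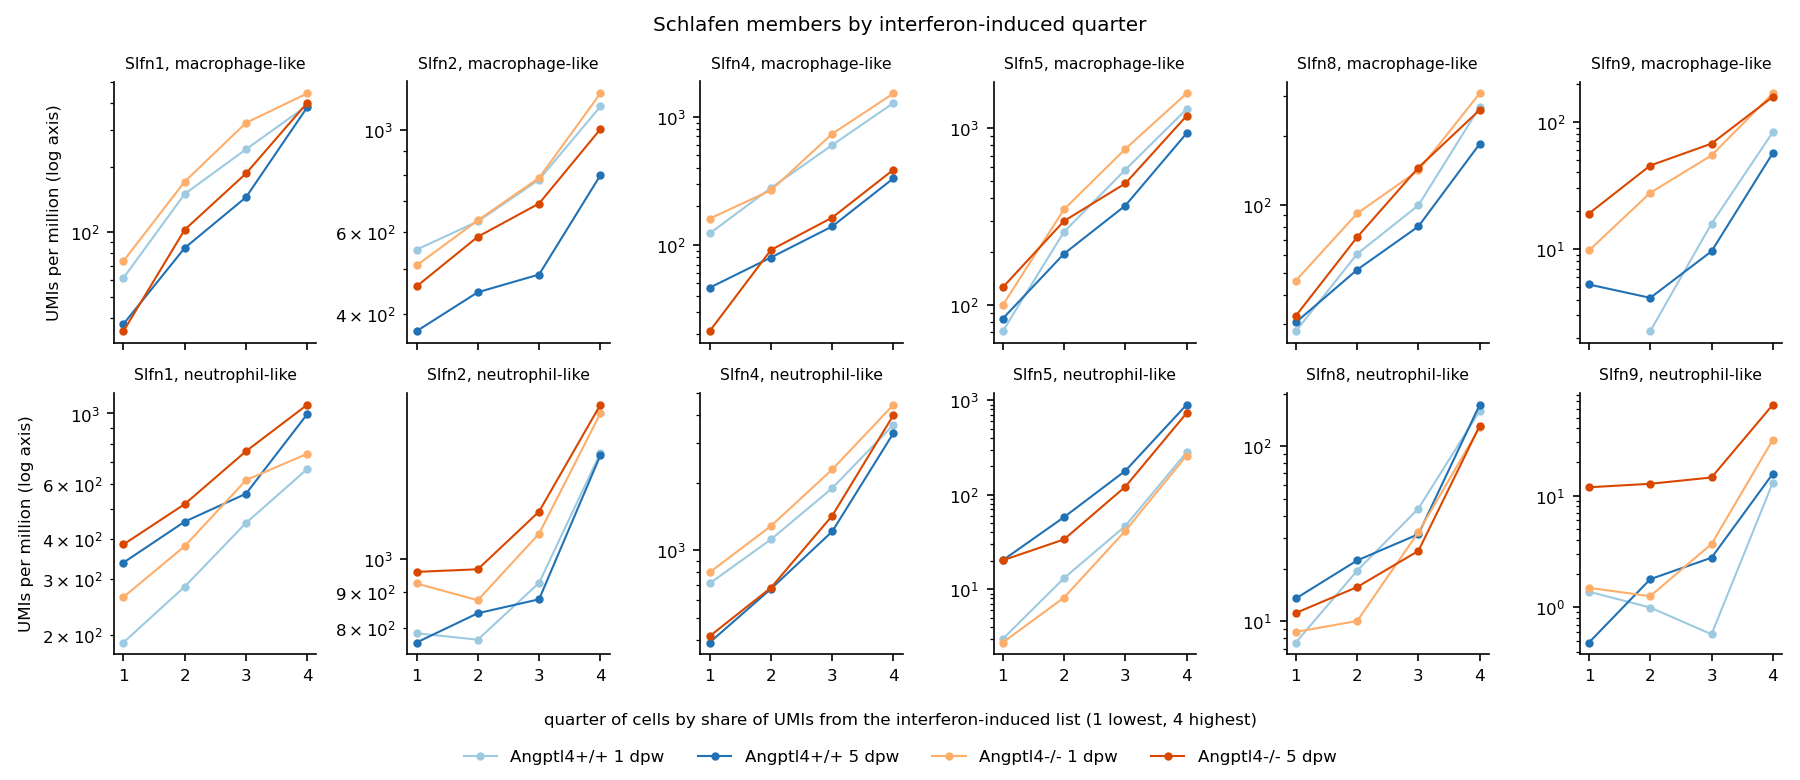
Level of each member (UMIs per 1000000, log axis) in the 4 bins (1 lowest and 4 highest) of macrophage-like and neutrophil-like cells ordered by their summed level of 33 interferon-induced genes, 1 line per library. All members are higher in the top than in the bottom bin in 4 of 4 libraries, and Slfn5 in neutrophil-like cells has the steepest lines, at 5.17 to 6.57 on the log2 scale from bin 1 to bin 4. Slfn9 in bin 1 of macrophage-like cells is at 0 in the wild-type library on day 1 and is not drawn. The share of all genes higher in the top bin was not counted.

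Likeness between genes was measured as Pearson's r of log2(CPM + 1) over 20 sums, 5 classes in 4 libraries, among 8723 genes with at least 500 UMIs. These points share libraries and depth, so r is a description. Of the members, Slfn1 was most like Slfn4 (r = 0.904) and Slfn2 (0.891), and Slfn8 most like Slfn9 (0.668) and Slfn5 (0.626). Slfn8 and Slfn9 share transcript words, as given above, and the part of shared reads in their r was not tested. Over all genes, Ets2, Cxcl2, Clec4d, Nfkbiz and Nlrp3 were most like Slfn4, led by Ets2 at 0.986. Cln3, Xylt1, Ptpn12, Tirap and Ltb4r1 were most like Slfn1, led by Cln3 at 0.974. Notch2, Abr, Tlr13, Sh2b2 and Ppp1r2 were most like Slfn2, led by Notch2 at 0.935. Spop, 5031439G07Rik, Plekhm3, Rgl2 and Dock4 were most like Slfn5, led by Spop at 0.953. Daxx, Parp14, Cd36, Exoc5 and Dck were most like Slfn8, led by Daxx at 0.862. Mtss1, Ifi202b, Emp1, Fam222b and P2ry10b were most like Slfn9, led by Mtss1 at 0.762. The sums hold the genotype difference that Slfn9 was chosen for, so genes that differ by genotype in the same way can rank high here. The highest r for Slfn9 is below those of the other members, and Slfn9 also had the fewest UMIs of the 6.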

How the data were processed

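The deposited values are UMI counts per gene and cell, which the authors made with Cell Ranger 3.1.0 on mm10 and analysed with Seurat 3.0, per the submitters' processing notes. The annotation release is not given in the sources used here. From these counts, barcodes with at least 200 genes and at most 10% mitochondrial UMIs were kept. Cells were integrated and clustered with Seurat 5.3.0 in R 4.3.3 (2000 variable genes without the 10 Slfn rows, 30 dimensions, resolution 0.5). Clusters were named from fixed markers, by a rule set with the data in view. Scrublet's own threshold (scanpy 1.11.5) marked 7 cells, so the highest scores at 0.8% per 1000 cells were marked (789 cells). They were kept, and left out as an alternative. In the class sums 2 red cells were left out.

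UMIs were summed per class and library and given per 1000000. With 1 library per condition there was no test and no p-value. Ratios have exact conditional binomial 95% intervals and levels exact Poisson intervals (Python 3.11.15, scipy 1.17.1, numpy 2.4.6), for counting error only. A gene counted as past 2-fold if it had at least 100 UMIs in the comparison and a ratio beyond 2. No ratio of a member was given where 1 side had 0 UMIs. Alternatives were a stricter cell filter, other clusterings, classes from markers alone, other scalings, thinning, equal weight per cell, other UMI minimums and a limit of 1.5-fold. The ratio script was tested on simulated data. The members and lists were chosen with earlier results of these data known. Named were all Slfn genes, the 5 genes most like each member, neighbours within 1 Mb past 2-fold by genotype, and from each list the genes past 2-fold by genotype and the 3 with the most UMIs. Of the signalling list those were Socs3, Jak1 and Ifngr1. Coordinates and transcript words are from the GRCm38 annotation and promoters from RefSeq.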

Additional observations from a re-analysis of the deposited data

Results flagged for a closer look

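In some comparisons a member moved one way in macrophage-like and the other way in neutrophil-like cells. With 1 library per condition the difference between the classes was not tested, and values are the macrophage-like minus the neutrophil-like log2 ratio.

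For the genotype ratio this held for Slfn5, by 0.57 on day 1 and 0.67 on day 5, and for Slfn8, by 0.79 on day 1 and 0.88 on day 5. Read against the median of all genes in each class, the opposite signs stayed for Slfn8 and Slfn5 on both days, though the neutrophil-like value of Slfn5 on day 1 was then -0.06, with an interval that included 0.

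For the ratio of day 5 over day 1 it held for Slfn5, by -2.27 in wild-type and -2.17 in knockout wounds, for Slfn1, by -0.97 and -1.08, and for Slfn2 in knockout wounds, by -0.36. Against the median of all genes the opposite directions stayed for Slfn5 in both genotypes, and not for Slfn1 or Slfn2.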

How the results depend on the processing

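No paired analysis was possible because each condition is 1 library and the labels give no replicate numbers, so leaving out a replicate was not possible either. Of 48 ratios by genotype or day, 39 kept their sign under every alternative that was run, as did 21 of 24 ratios between the main classes. Sizes were less stable. Of the 48, 27 lay outside their main interval in thinned cells and 25 with median of ratios scaling. With that scaling 0 of 24 ratios between the classes stayed inside it. Slfn9 by genotype in macrophage-like cells on day 1 was 1.79 with classes set from marker levels without clustering and 0.77 in cells thinned to 1000 UMIs. In thinned cells Slfn9 by genotype in neutrophil-like cells was 1.71 on day 1 and 1.86 on day 5. Thinning left out 442 cells (2.23%). The number of members past 2-fold became 0 in macrophage-like cells by genotype on day 1 (thinned) and 1 in neutrophil-like cells by day in knockout wounds (Slfn5 when thinned, and Slfn4 with median of ratios scaling). It became 2 in neutrophil-like cells by day in wild-type wounds with median of ratios scaling (Slfn4 and Slfn5), and with a limit of 1.5-fold 2 and 3 in macrophage-like cells by day in wild-type and knockout wounds. Median of ratios scaling turned Slfn8 in macrophage-like over neutrophil-like cells of wild-type wounds on day 1 to -0.37. It also took the share of all genes past 2-fold by day in neutrophil-like cells from 32.4% to 16.5% in wild-type and from 34.5% to 17.0% in knockout wounds. The cause was not tested, beyond the fewer UMIs of thinned cells. Bins by interferon-induced genes were repeated in thinned cells, an alternative chosen after seeing the data, and 46 of 46 ratios that could be repeated kept their sign. Of these, 32 lay outside the interval of the main value. The few UMIs of Slfn9 limit its values in small classes.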

Other observations

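The other Schlafen genes of the tables had few UMIs in the cells that passed the filters. Slfn3 had 77 to 119 UMIs per library and 405 in all, Slfn14 had 4 UMIs in all, the antisense gene Slfn5os had 6 and the Schlafen-like gene Slfnl1 had 0.

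In neutrophil-like cells Slfn3 had 4.42 CPM in wild-type and 4.91 in knockout wounds on day 1, a log2 ratio of 0.15 (-0.29 to 0.59), and in macrophage-like cells 2.53 and 4.16 CPM on day 5, a ratio of 0.72 (-0.03 to 1.46).

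In monocyte-like cells Slfn9 had 8.47 CPM on day 1 and 22.2 on day 5 in wild-type wounds, and 16.1 and 56.0 CPM in knockout wounds, so its level was higher on day 5 in both genotypes, while in dendritic cell-like cells it went from 10.5 to 5.26 CPM and from 47.7 to 21.3. The Slfn5 level of NK/T-like cells on day 1 was 58.9 CPM in wild-type and 194 in knockout wounds, from 18 and 56 UMIs in 39 and 36 cells, and on day 5 it was 51.4 and 52.3 CPM.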
